A study of Mus musculus with 6 samples.

Results

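A set of 10 genes of the heat shock response and of cold-inducible RNA binding was followed in mouse lung. The genes were chosen by name, and all 10 were found by symbol among the 21900 genes of the deposited table. They are Hspa1a, Hspa1b, Hspa8, Hsph1, Dnajb1, Hsp90aa1, Hspd1 and Hspe1 on the heat shock side and Cirbp and Rbm3 on the cold side. None of the 10 differed between lungs labelled Cyp1b1 knockout and lungs labelled wild type past the test. On simulated data that test found 23.8% of 2-fold changes, so a difference of that size can go uncalled. The widest spread lay between single libraries. Hspa1a, Hspa1b and Dnajb1 were lowest in the male labelled knockout and stood 3.18-fold to 5.50-fold higher in their highest library.

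The study asked what loss of CYP1B1, a cytochrome P450 that oxidises steroids, retinoids and fatty acids, does in the lung on a high fat diet. RNA-seq was done on 3 lung libraries labelled Cyp1b1 KO, of which 2 are female and 1 is male, and on 3 labelled wild type, also 2 female and 1 male. Every mouse, in both groups, ate the high fat (western) diet for 10 weeks, so there is no group on ordinary chow. The labels give neither strain, age, the deleted part of Cyp1b1, time of death nor body temperature, and they do not state that each library is a separate animal. The p-values below therefore set each difference against the spread between these libraries, which may be in part technical. Replicates are numbered only to tell them apart, and number 3 is the male in both groups.

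Cells keep their proteins folded with chaperones that bind unfolded chains and release them in cycles driven by ATP. When unfolded proteins build up, heat shock factor 1 (HSF1) is freed, binds the heat shock element in DNA and switches on the inducible chaperones, while their constitutive relatives are made at all times. Cirbp and Rbm3 encode small RNA-binding proteins with a glycine-rich tail whose transcripts increase on mild cooling and decrease on warming, and both follow the daily body temperature cycle in several mouse tissues.

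Values are CPM (reads per 1000000 assigned to genes), from libraries of 20.2 M to 27.6 M assigned reads (M, 1000000). At this depth 3 reads are worth 0.109 to 0.148 CPM, a floor for counting error only. Cyp1b1 itself stood at 51.2, 56.1 and 48.4 CPM in the libraries labelled knockout, against 12.5, 19 and 18.5 CPM in those labelled wild type. Its level was thus higher under the knockout label, and gene-level values cannot show which exons were read, so both groups are called by their labels throughout. Lung epithelial markers were abundant in every library: the summed level of 7 alveolar type 2 markers was 15013 to 19969 CPM in labelled knockout and 16669 to 21076 CPM in labelled wild type. The male labelled knockout stood apart by its blood cell markers, with 5979 CPM over 8 neutrophil markers, against 120 to 226 CPM in the other 5 libraries. In bulk tissue, fewer cells of a type and less RNA per cell cannot be told apart.

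The inducible HSP70 pair, Hspa1a and Hspa1b, is shown by its upstream DNA because these near-identical copies carry the same heat shock element. Both lie on the minus strand of chromosome 17, Hspa1b at 34956436 to 34959238 and Hspa1a at 34969190 to 34972156 (GRCm38), 9.95 kb apart and 44.7 Mb from Cyp1b1 on the same chromosome. The 250 bases before each RefSeq start site (build GRCm38.p6) differ at 3 positions, and the open reading frames differ at 8 of 1926 aligned bases. Heat shock elements were searched on both strands as alternating GAA and TTC units with 2 bases between neighbours. The short form held 2 units (GAANNTTC or TTCNNGAA) and the long form 3 (GAANNTTCNNGAA or TTCNNGAANNTTC), so each long match also holds short ones. Windows are printed from 5′ to 3′ on the gene's strand, and capitals mark the short form. In both genes it lies 104 to 97 bases before the start. The Hspa1a window is chr17:34972157-34972406 and the Hspa1b window chr17:34959239-34959488.
Hspa1a: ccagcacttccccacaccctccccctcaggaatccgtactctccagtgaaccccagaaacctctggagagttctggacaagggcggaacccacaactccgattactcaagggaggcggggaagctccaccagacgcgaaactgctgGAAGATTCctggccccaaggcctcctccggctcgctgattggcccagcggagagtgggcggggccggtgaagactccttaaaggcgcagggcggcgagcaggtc
Hspa1b: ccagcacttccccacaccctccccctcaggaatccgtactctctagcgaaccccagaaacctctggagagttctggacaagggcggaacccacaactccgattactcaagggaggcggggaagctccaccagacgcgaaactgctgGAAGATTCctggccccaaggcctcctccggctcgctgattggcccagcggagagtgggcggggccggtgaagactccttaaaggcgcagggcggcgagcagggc

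RefSeq windows were at hand for 7 of the 10 genes. The short form stood in 12.8% of the 32851 windows of all genes and the long form in 0.466%. Counted by gene, over any of its windows, the shares were 14.5% and 0.514% of 27025 genes. Among the 7, Hspa1a, Hspa1b, Hsph1, Hspd1 and Hspe1 had a match, and the letters were in none of the windows of Dnajb1 and Cirbp. Hspd1 and Hspe1 are transcribed away from each other and share a single stretch of DNA, chr1:55088059-55088076, that reads as 4 units in a row. It lies 144 to 127 bases before the downstream one of 2 start sites of Hspd1 and 89 to 72 bases before that of Hspe1. The stretches of 30 bases around the matches of Hsph1 (chr5:149636351-149636380, minus strand) and of Hspd1 and Hspe1 (chr1:55088053-55088082, minus and plus strand) are given to show the units, in capitals. A match is a description of the letters, not of binding.
Hsph1: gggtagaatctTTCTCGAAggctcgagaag
Hspd1: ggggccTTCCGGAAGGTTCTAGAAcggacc
Hspe1: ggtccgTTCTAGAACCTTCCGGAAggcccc

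**Figure D1:**
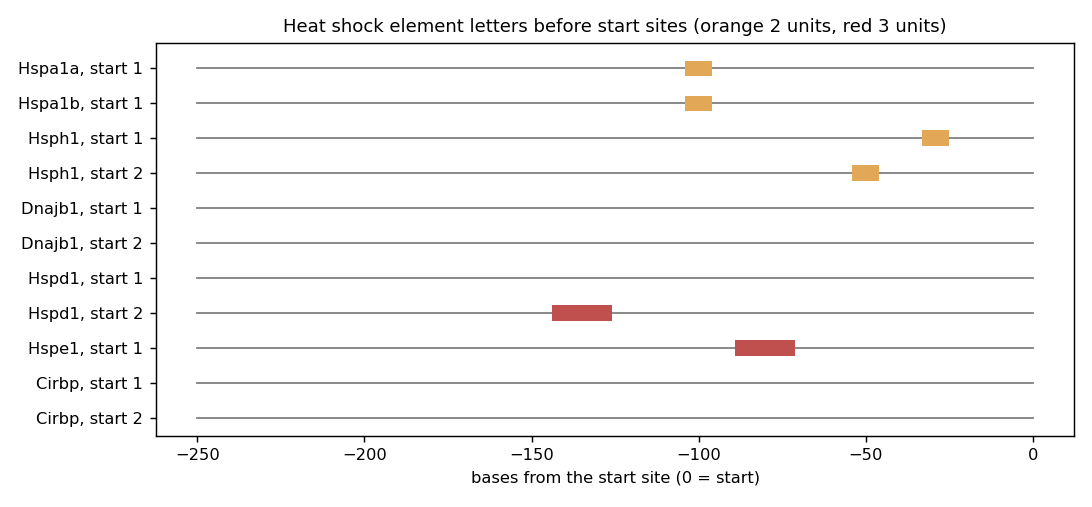
Position of heat shock element letters in the 250 bases before each RefSeq start site of the 7 genes with a window, in bases from the start (x axis); each grey line is a window, orange bars hold 2 units and red bars 3 or more in a row. Hspa1a and Hspa1b share the position 104 to 97 bases upstream, and the long form is seen for Hspe1 and for 1 start of Hspd1.

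Hspa1a encodes the stress-inducible HSP70, the chaperone that binds short hydrophobic stretches of unfolded chains. It had 312, 515 and 126 CPM in labelled knockout 1, 2 and 3, against 336, 585 and 380 CPM in labelled wild type 1, 2 and 3. An annotated gene on the opposite strand, Gm20481, overlaps Hspa1a and was not analysed here. The twin gene Hspa1b, which encodes almost the same protein, had 358, 652 and 130 CPM in labelled knockout and 426, 715 and 560 CPM in labelled wild type. For both genes the male labelled knockout was lowest and the second female of each label was highest of its label. The labels overlapped: labelled knockout 2 lay above labelled wild type 1 and 3. Hspa1a averaged 317 ± 195 CPM in labelled knockout and 434 ± 133 CPM in labelled wild type, and Hspa1b averaged 380 ± 262 CPM in labelled knockout and 567 ± 145 CPM in labelled wild type (SD, n = 3 each).

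Since the copies share sequence, the authors' counting may have moved reads between them. Of the 50-base windows of their annotated transcripts, 58.8% of those of Hspa1a were found in Hspa1b and 62.3% of those of Hspa1b in Hspa1a. Their sum does not depend on that split. It was 669, 1167 and 256 CPM in labelled knockout and 761, 1300 and 940 CPM in labelled wild type. Hspa1a took 44.1% to 49.2% of the sum in labelled knockout and 40.4% to 45% in labelled wild type. The mean difference of the sum was -303 CPM (697 ± 456 CPM in labelled knockout, 1000 ± 274 CPM in labelled wild type, SD, n = 3 each; exact two-sided permutation test over 20 assignments, p = 0.4, where 0.1 is the smallest that 3 against 3 allows). Without the male labelled knockout it was -82.4 CPM, and over the 4 females, a subset added after the data were seen, -113 CPM (918 ± 352 CPM in labelled knockout, 1031 ± 381 CPM in labelled wild type, SD, n = 2 each; exact permutation p = 0.667). In size, the difference of -303 CPM was smaller than the SD among the libraries labelled knockout (456 CPM). It was larger than that among the libraries labelled wild type (274 CPM).

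Dnajb1 (chromosome 8, 83608193 to 83612653, plus strand) encodes the inducible J-domain protein (HSP40) that hands unfolded clients to HSP70 and starts its ATP hydrolysis. It had 107, 184 and 57.7 CPM in labelled knockout, against 113, 161 and 183 CPM in labelled wild type. The male labelled knockout was again lowest of the 6, while labelled knockout 2 and the male labelled wild type were highest and nearly level. The mean was 116 ± 63.5 CPM in labelled knockout and 152 ± 36.1 CPM in labelled wild type (SD, n = 3 each). Unlike the HSP70 pair, its transcripts share almost nothing with other genes (0.412% of 50-base windows).

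Hsph1 (chromosome 5, 149614287 to 149636376, minus strand) encodes HSP110, a nucleotide exchange factor that makes HSP70 let go of its client. It stood at 86.3, 115 and 83.3 CPM in labelled knockout and at 71.4, 107 and 139 CPM in labelled wild type. Here the lowest library was labelled wild type 1 and the highest the male labelled wild type, so the labels overlapped. Hspa8 (chromosome 9, 40800984 to 40810087, plus strand) encodes HSC70, the constitutive cytosolic HSP70, and had the highest level of the 10 also per length of merged exons, at 248 CPM per kb in labelled knockout and 276 in labelled wild type. It read 1035, 1219 and 948 CPM in labelled knockout, against 940, 1137 and 1487 CPM in labelled wild type. The male labelled wild type was highest, and the other 5 libraries lay within 1.30-fold of each other.

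Hspa8 has processed copies that the table lists as genes of their own. Gm15459, which holds 34.6% of the 50-base windows of Hspa8, stood at 552, 616 and 549 CPM in labelled knockout and at 515, 582 and 763 CPM in labelled wild type. Over Hspa8 and the 9 listed genes that each hold at least 1% of its windows, Hspa8 itself took 60.6% to 63.7% of the reads in every library. The sum was 1652, 1914 and 1564 CPM in labelled knockout, against 1521, 1789 and 2344 CPM in labelled wild type. The order of the libraries in the sum is that of Hspa8 alone, so the male labelled wild type is highest by either count.

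Hsp90aa1 (chromosome 12, 110690605 to 110702728, minus strand) encodes the inducible form of cytosolic HSP90, which keeps steroid receptors and kinases in a state ready for activation. It was the steadiest of the 10 genes, with 437, 524 and 464 CPM in labelled knockout and 422, 500 and 426 CPM in labelled wild type. Its highest library, labelled knockout 2, stood 1.24-fold above its lowest, labelled wild type 1. The means were 475 ± 44.5 CPM in labelled knockout and 449 ± 44.3 CPM in labelled wild type (SD, n = 3 each). The listed copy Gm12346, with 41.8% of the windows, had 170, 213 and 198 CPM in labelled knockout and 155, 204 and 155 CPM in labelled wild type, and Hsp90aa1 took 63.9% to 69.6% of the reads of the 4 listed look-alikes, itself included.

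Hspd1 (chromosome 1, 55077835 to 55088243, minus strand) and Hspe1 (55088132 to 55091307, plus strand) encode HSP60 and HSP10, the barrel and the lid of the mitochondrial chaperonin. Their genes overlap by 112 bases, and the strand setting of the counting is not given in the sources used here, so reads there cannot be assigned to one of them. Hspd1 had 90.7, 116 and 84.1 CPM in labelled knockout, against 99.9, 96.3 and 109 CPM in labelled wild type. Hspe1 had 28.8, 33.1 and 29 CPM in labelled knockout, against 34.5, 27.2 and 39.4 CPM in labelled wild type. Both genes were highest of their label in labelled knockout 2 and in the male labelled wild type, and the labels overlapped. Hspd1-ps3, a copy of Hspd1 in the table, had 23.4 to 32.2 CPM in labelled knockout, against 29.7 to 37.3 CPM in labelled wild type.

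Cirbp (chromosome 10, 80165985 to 80172786, plus strand) encodes the cold-inducible RNA-binding protein, which lengthens the 3′ ends of target transcripts and steadies circadian rhythm in mouse cells. It had 58.4, 55 and 28.2 CPM in labelled knockout, against 60.7, 48.4 and 43.9 CPM in labelled wild type. The male was lowest within each label, and the male labelled knockout lowest of all. Rbm3, the related gene (chromosome X, 8138975 to 8145880, minus strand) whose protein promotes translation in the cold, had 141, 89.9 and 77.5 CPM in labelled knockout and 91.6, 85 and 133 CPM in labelled wild type. In Rbm3 the male labelled knockout was lowest again, whereas the male labelled wild type was the second highest library after labelled knockout 1. Means were 47.2 ± 16.6 CPM in labelled knockout and 51.0 ± 8.68 CPM in labelled wild type for Cirbp, and 103 ± 33.7 CPM in labelled knockout and 103 ± 26.1 CPM in labelled wild type for Rbm3 (SD, n = 3 each). The antisense gene Rbm3os overlaps Rbm3 and had at most 0.689 CPM in any library.

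**Figure D2:**
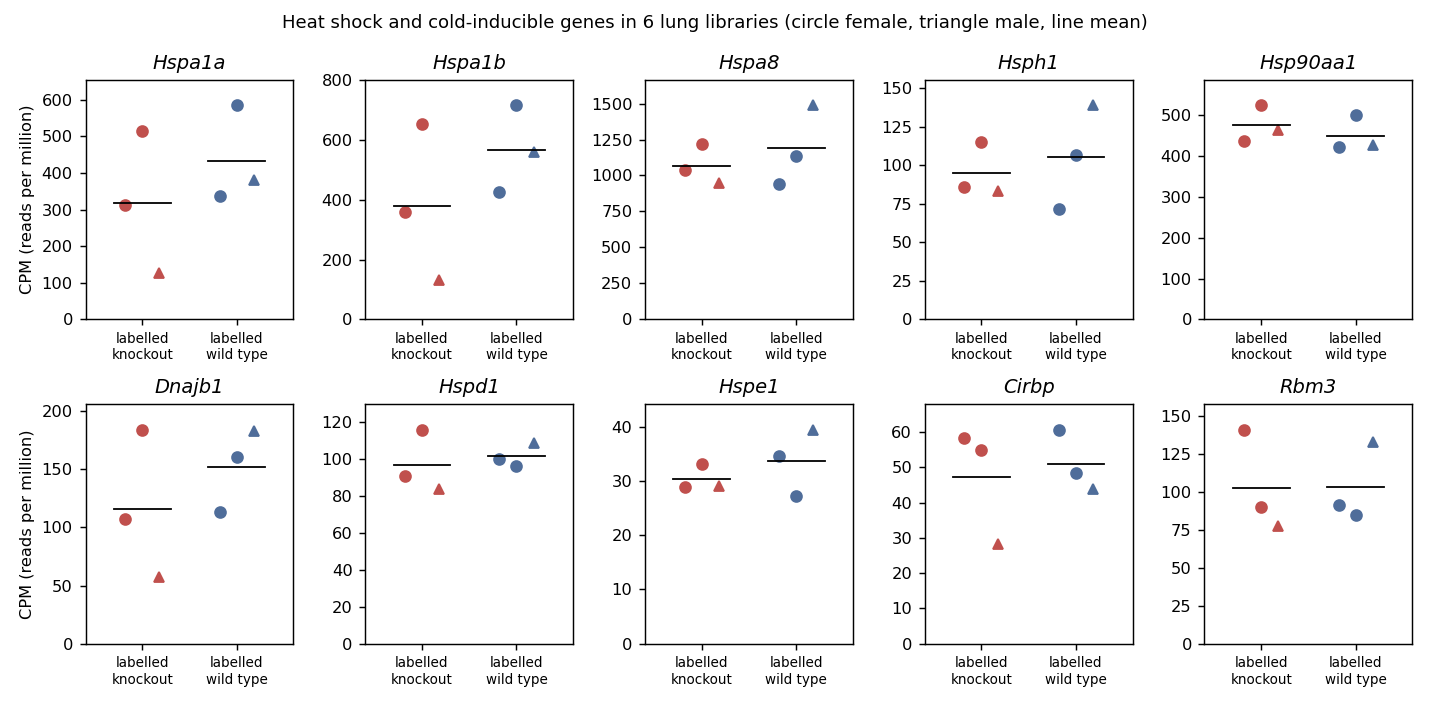
CPM of each gene (y axis, from 0, a scale of its own in each panel) by label (x axis); circles are females, triangles males and lines label means. The red triangle, the male labelled knockout, is lowest for Hspa1a at 126 CPM, for Hspa1b at 130 CPM, for Dnajb1 at 57.7 CPM and for Cirbp at 28.2 CPM, and the labels overlap in every panel.

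Between libraries the 10 genes ranged from widely spread to nearly level. The highest library stood above the lowest by 5.50-fold for Hspa1b, 4.65-fold for Hspa1a and 3.18-fold for Dnajb1. Ranges at least that wide on the log2 scale were found for 3.27%, 4.35% and 10.5% of the 17382 genes tested. Cirbp spanned 2.15-fold, Hsph1 1.95-fold and Rbm3 1.82-fold, and Hspa8, Hspe1, Hspd1 and Hsp90aa1 between 1.24-fold and 1.58-fold. At the narrow end, 88.5% of all genes tested ranged at least as widely as Hsp90aa1. Over the 4 females alone the spread of Hspa1b was 2.0-fold, of Hspa1a 1.88-fold and of Dnajb1 1.71-fold.

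The male labelled knockout was the lowest library for 6 of the 10 genes and the highest for none. Labelled wild type 1 was lowest for 3 and labelled wild type 2 for 1. The highest library was labelled knockout 2 for 3 genes, the male labelled wild type for 3, labelled wild type 2 for 2, and labelled knockout 1 and labelled wild type 1 for 1 each. Hspa1a and Hspa1b, which may share reads, count separately among the 6. Many other genes were low in the male labelled knockout as well. In it 37.6% of all genes tested lay above the mean of the females of its label, and 38.4% above the male labelled wild type. The share of all genes that were lowest in it was not counted. Averaged over the 8 heat shock genes after centring each on its own mean, log2 levels were -0.15, 0.33 and -0.63 in labelled knockout, against -0.10, 0.24 and 0.30 in labelled wild type. For Cirbp and Rbm3 the same average was 0.39, 0.02 and -0.56 in labelled knockout and 0.11, -0.11 and 0.14 in labelled wild type. Both averages were lowest in the male labelled knockout. The heat shock average there came mostly from Hspa1a at -1.43, Hspa1b at -1.67 and Dnajb1 at -1.11. The other heat shock genes stood between -0.23 and 0.01 in that library.

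Between the females of a label, most heat shock genes and the cold-inducible pair lay on opposite sides of 0; these are differences of single libraries with no replicate check. In labelled knockout 2 against labelled knockout 1, all 8 heat shock genes were higher, with a median log2 difference of 0.38 and a range of 0.20 to 0.87, while 54.5% of all genes tested were higher with a median of 0.03. Cirbp and Rbm3 differed there by -0.09 and -0.65. In labelled wild type 2 against labelled wild type 1, 6 of the 8 heat shock genes were higher, with a median of 0.40 and a range of -0.34 to 0.80, against 50% of all genes and a median of 0.00. The cold-inducible pair was lower there as well, by -0.32 for Cirbp and -0.11 for Rbm3. Labels and sex are equal within each of these pairs.

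Males set against females gave another picture. In the male labelled knockout, all 8 heat shock genes and both cold-inducible genes lay below the mean of the females of that label. The heat shock median was -0.27 on the log2 scale, with a range of -1.89 to -0.05, while 37.6% of all genes tested were above 0 and their median was -0.13. In the male labelled wild type, 6 of 8 heat shock genes lay above the females of that label, with a median of 0.26, and 51.1% of all genes did. Set directly against the male labelled wild type, the male labelled knockout was lower for 7 of 8 heat shock genes (median -0.69, range -2.10 to 0.12) and for both cold-inducible genes, with 38.4% of all genes tested higher and a median of -0.15.

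**Figure D3:**
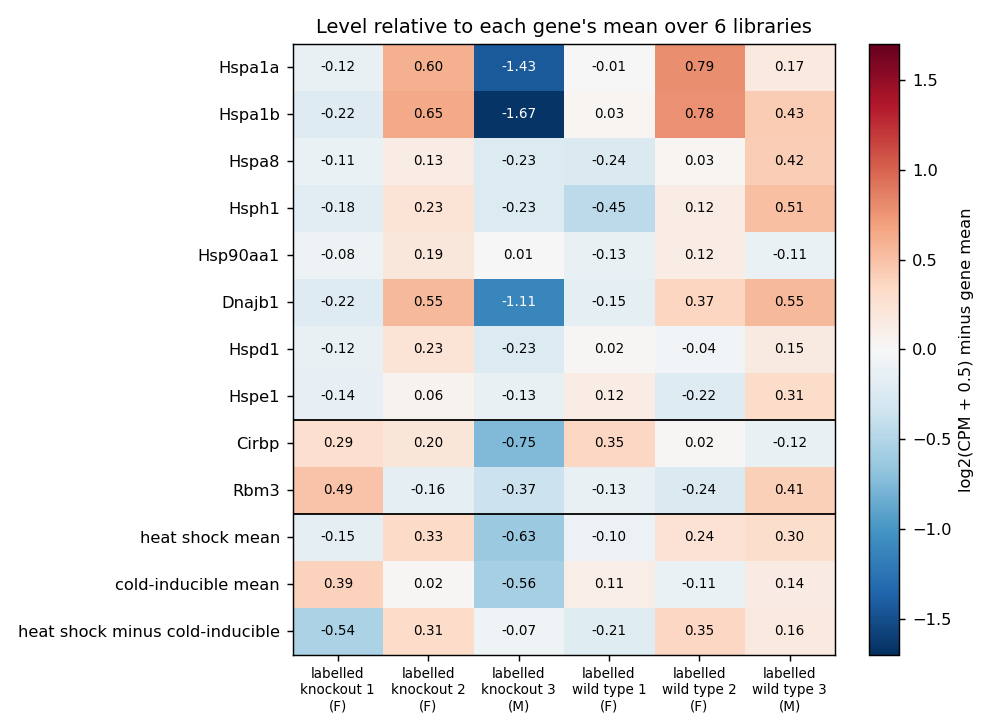
Colour and number give log2(CPM + 0.5) of each gene (upper 10 lines) minus its mean over the 6 libraries, by library (x axis, F female, M male), with the average of the 8 heat shock genes, that of the cold-inducible pair and their difference below. The deepest blue cells are Hspa1b at -1.67 and Hspa1a at -1.43 in the male labelled knockout, and the difference is -0.54 in labelled knockout 1 and 0.35 in labelled wild type 2.

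For the comparison of labels, limma was run on log2(CPM + 0.5) with sex as a further term, over all 17382 genes with a mean of at least 0.5 CPM, which took in all 10. None of the 10 passed an adjusted p under 0.05, where 0.0115% of all genes tested did, and none had an unadjusted p under 0.05, where 5.13% did. Cyp1b1 itself, whose labels did not overlap, also stayed short of the threshold (log2 difference 1.63, limma adjusted p = 0.0588). Hspa1b had the largest estimate, a log2 difference of -0.83 ± 0.41 (SE, labelled knockout minus labelled wild type; adjusted p = 0.775), with a 95% interval of -1.77 to 0.11. Hspa1a followed at -0.63 ± 0.34 (interval -1.41 to 0.15) and Dnajb1 at -0.51 ± 0.35 (interval -1.33 to 0.30), both at an adjusted p of 0.775. The other 7 lay between -0.17 for Cirbp and 0.08 for Hsp90aa1, with adjusted p-values from 0.813 to 0.985. The 95% intervals of these 7 all lay inside -0.65 to 0.55, so that a difference of 2-fold lies outside each of them, whereas those of Hspa1a, Hspa1b and Dnajb1 reach past it.

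In direction, 9 of the 10 estimates were below 0, as were 59.9% of all genes tested, whose median was -0.06. With each library centred on its median, that of all genes moved to 0.05, Hspd1 at 0.02 and Rbm3 at 0.08 turned above 0, and 7 of the 10 estimates were below 0, against 42.1% of all genes. None of the 10 had all libraries of 1 label on one side of the other label, a pattern that 9.52% of all genes tested showed. Over the 4 females, 8 of the 10 estimates were above 0, against 49.2% of all genes tested. The female values were -0.15 for Hspa1a and -0.19 for Hspa1b, 0.06 for Dnajb1 and 0.35 for Rbm3 (interval -0.06 to 0.77), each with an adjusted p of 1 in limma. Leaving out either male gives these same female values. The direction of Hspa8, Hsph1, Dnajb1, Hspd1, Hspe1, Cirbp and Rbm3 therefore turns without either male. The fit cannot tell the 2 males apart in this.

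**Figure D4:**
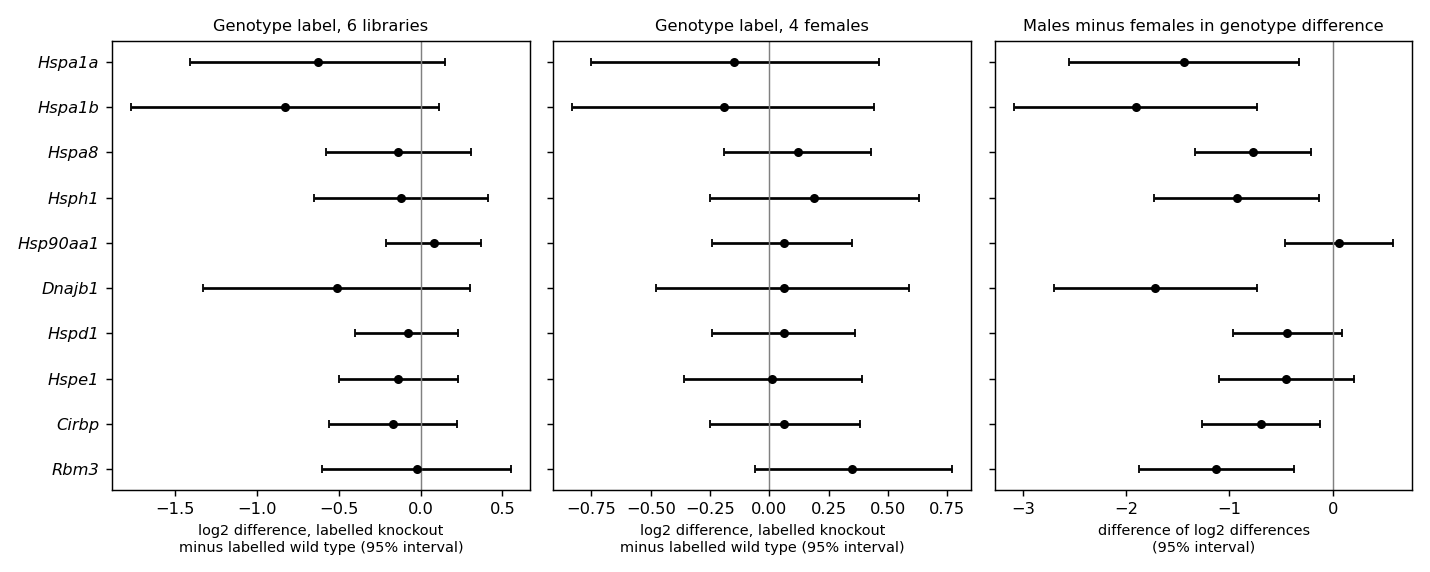
log2 differences of the 10 genes with 95% intervals from limma (x axis) for labelled knockout minus labelled wild type in all 6 libraries, for the same in the 4 females, and for the genotype difference in males minus that in females. Every interval covers 0 in the first and second panels, while in the third Hspa1b at -1.91 and Dnajb1 at -1.72 lie farthest from 0.

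Sex was balanced between the labels and came from the same model. None of the 10 passed an adjusted p under 0.05, against 0.834% of all genes tested, and Hspa1a and Cirbp had an unadjusted p under 0.05, as did 15.3% of all genes. Cirbp differed by -0.65 ± 0.18 on the log2 scale, male minus female (limma, adjusted p = 0.146), Hspa1a by -0.94 ± 0.36 (adjusted p = 0.265) and Hspa1b by -0.93 ± 0.43 (adjusted p = 0.358). Without the male labelled knockout the same 3 estimates were -0.30, -0.22 and 0.02. Without the male labelled wild type they were -1.0, -1.67 and -1.89, with adjusted p-values in limma of 0.0212, 0.0361 and 0.0289, in a fit that called 4.87% of all genes tested. The male side of that fit is the male labelled knockout alone, with the females giving the spread, so it sets 1 library, the one with the high neutrophil markers, against the females.

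The difference of the genotype contrast between the sexes was tested with an interaction term. As each label has 1 male, the spread in this test is that between females, and males are taken to vary as much. None of the 10 passed, where 2.54% of all genes tested did. An unadjusted p under 0.05 was found for 7 of the 10, against 17.9% of all genes, and 9 of the 10 estimates were below 0, against 60.5%. Under quantile normalization 9 of the 10 were below 0 against 47.4% of all genes, and under median centring 9 of the 10 against 43.2%. The median of all genes was -0.13, and it moved to 0.03 and 0.09 under those scalings. Estimates were -1.91 ± 0.51 for Hspa1b (limma, adjusted p = 0.103), -1.72 ± 0.43 for Dnajb1 (adjusted p = 0.0838), -1.44 ± 0.49 for Hspa1a (adjusted p = 0.174) and -1.13 ± 0.33 for Rbm3 (adjusted p = 0.131). Hsph1 at -0.93, Hspa8 at -0.77 and Cirbp at -0.69 followed, Hspe1 at -0.45 and Hspd1 at -0.44 had intervals that cover 0, and Hsp90aa1 stood at 0.06 ± 0.23 (interval -0.46 to 0.59, adjusted p = 0.919).

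Leaving out single females moved some of these calls. The spread in such a fit comes from the 1 remaining pair of females of a label, and the lone female and both males are taken to vary as much. Without labelled knockout 1, where 1.32% of all genes tested passed, so did Hspa1b at -2.34 (limma, adjusted p = 0.0315) and Dnajb1 at -2.10 (adjusted p = 0.0209). Without labelled knockout 2, Rbm3 passed at -1.45 (adjusted p = 0.0249), as did 1.95% of all genes. Without labelled wild type 2, Hspa1b passed at -2.28 (adjusted p = 0.0486), as did 2.64% of all genes. Without labelled wild type 1 none of the 10 passed in limma, where 577 of 17401 genes did.

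Markers of other cells also set the male labelled knockout apart. It held 5898 CPM over 6 erythroid markers and 367 CPM over 6 platelet markers. The other 5 libraries held 852 to 2768 CPM and 33.3 to 60.4 CPM. Its 6 airway epithelial markers summed to 13391 CPM, the lowest of all, beside 18482 CPM in the male labelled wild type and 24860 to 29858 CPM in the females. Scgb1a1 made up most of its sum, with 9396 CPM. Scgb1a1, Scgb3a2, Foxj1 and Tppp3 were each lowest in the male labelled knockout, whereas Cyp2f2 and Scgb3a1 were not. B cell markers (5 genes) summed to 60 CPM in it and to 128 to 229 CPM elsewhere. T cell markers (6 genes) summed to 31.7 to 48.3 CPM in labelled knockout and to 33.1 to 155 CPM in labelled wild type, highest in the male. Summed levels were less spread for alveolar type 1 cells (3372 to 3904 CPM in labelled knockout, 2967 to 4420 CPM in labelled wild type) and endothelial cells (3412 to 3572 CPM in labelled knockout, 2413 to 3651 CPM in labelled wild type). Fibroblast markers summed to 1169 to 1870 CPM in labelled knockout and 1385 to 1764 CPM in labelled wild type, cardiac muscle markers to 1049 to 1949 CPM in labelled knockout and 1195 to 1578 CPM in labelled wild type, and macrophage markers to 184 to 382 CPM in labelled knockout and 352 to 413 CPM in labelled wild type. Among the macrophage markers, Chil3 had 58.4, 64.5 and 231 CPM in labelled knockout and 279, 224 and 238 CPM in labelled wild type. Means of Siglecf and Mrc1 were higher in labelled knockout, and those of Marco, Ear2 and Fabp4 lower. No marker of any of the 12 cell lists was called between labels in limma. An unadjusted p under 0.05 was found for 2 markers, beside 5.13% of all genes tested. The interaction called 7 of 8 neutrophil, 5 of 6 platelet, 2 of 5 B cell and 2 of 6 T cell markers and 1 macrophage marker. It called 2.54% of all genes tested. Mitochondrially encoded transcripts made up 5.46% of its reads, against 3.24% to 4.99% elsewhere. Whether these differences in cell markers and RNA bear on the 10 genes was not tested.

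The rest of the folding machinery was read from lists of its parts. Hsf1, the gene of the master regulator HSF1, had 42.9, 46.6 and 37.2 CPM in labelled knockout and 39.1, 44.1 and 40.3 CPM in labelled wild type (log2 difference 0.03, limma adjusted p = 0.955). None of the 4 heat shock factors and regulators tested was called between labels, and Hsbp1, which binds HSF1 and restrains it, stood at -0.10 (adjusted p = 0.822). Among 17 other HSP70 proteins and exchange factors none was called and the median was 0.02. The testis-type Hspa1l, next to Hspa1a on the chromosome, was at -0.38 and Hspa12a at 0.31, both at an adjusted p of 0.775. The median of all genes tested was -0.06. Under median centring, which moves it to 0.05, the median of the 8 heat shock genes was -0.03, of HSP90 and its cochaperones -0.04 and of the J-domain genes 0.00. All 8 chaperonin subunits, all 7 cold shock domain genes and all 4 heat shock factors and regulators then lay above 0, none of them called. Without the centring 4, 5 and 2 of them did. Of all 17382 genes tested, 10072 lay above 0 under the centring and 6964 without it.

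None of 13 HSP90 proteins and cochaperones was called between labels (median -0.14). The cyclophilin Ppid had a log2 difference of -0.38 and the HSP90 activator Ahsa2 of -0.36. Nor was any of 17 J-domain proteins (median -0.10; Dnajb2 at -0.19, Dnaja1 at -0.47), of 7 small heat shock proteins (median -0.16; Hspb2 at -0.48, Hspb1 at -0.28) or of 8 subunits of the cytosolic chaperonin (median 0.01; Cct3 at -0.09, Cct8 at -0.08). The 10 other mitochondrial chaperones and proteases had a median of -0.05, with Clpx at 0.22 and Lonp1 at 0.17, and the 15 endoplasmic reticulum chaperones one of -0.10, with Hyou1 at 0.25 and Sdf2l1 at -0.32. Of 7 cold shock domain proteins, the other family named for cold, none was called and the median was 0.13, with Carhsp1 at 0.35 and Lin28a at 1.27. In the male labelled knockout Lin28a had 7.13 CPM, and in the other 5 libraries no more than 0.403 CPM. Its log2 difference ran from 0.23 to 1.78 with each of those 5 left out in turn. Without the male labelled knockout its mean fell under the filter, so that fit gave no value for it. The adjusted p in limma was 0.846 for Cct3, 0.862 for Cct8 and 0.775 for each other gene named in this paragraph. Over all these lists and the immediate early genes, an unadjusted p under 0.05 between labels was found for Hyou1, Carhsp1 and Junb. It was found for 5.13% of all genes tested.

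In the sex interaction, 1 gene of the HSP90 list and 1 J-domain gene passed, beside 2.54% of all genes tested. Dnaja1, a cytosolic J-domain partner of HSP70, had 118, 134 and 70.4 CPM in labelled knockout and 112, 132 and 200 CPM in labelled wild type. Its interaction was -1.55 ± 0.21 (limma, adjusted p = 0.0095), with the male labelled knockout lowest and the male labelled wild type highest. Fkbp5, an HSP90 cochaperone of steroid receptors, went the other way, with 15.8, 29.1 and 146 CPM in labelled knockout and 21.6, 28.8 and 34.6 CPM in labelled wild type (2.27 ± 0.46, adjusted p = 0.0455). Fkbp5 no longer passed without labelled wild type 2 (2.06, adjusted p = 0.0763), with a pseudocount of 0.1 or with no filter on low values, and Dnaja1 no longer passed with no filter (adjusted p = 0.135). An unadjusted p under 0.05 was found for 7 of the 13 HSP90 genes and 4 of the 17 J-domain genes, beside 17.9% of all genes. The list medians were -0.44 and -0.03, beside -0.85 for the 8 heat shock genes, -0.91 for Cirbp and Rbm3 and -0.13 for all genes. Under median centring these became -0.21, 0.20, -0.62, -0.68 and 0.09. The other chaperone and cold shock lists had interaction medians from -0.24, for endoplasmic reticulum chaperones, to 0.44, for cold shock domain proteins. None of their genes was called. Median centring called 1 of the 17 other HSP70 genes, in a fit that called 661 of all 17382 genes tested.

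Immediate early genes, whose transcription starts within minutes of a stimulus without new protein, were listed because they answer many of the same stresses. No gene of the 17 was called between labels, and all 17 estimates were below 0, with a median of -0.37, against 16 under quantile normalization and 14 under median centring. Below 0 were 48.2% and 42.1% of all genes under those scalings. Egr2 stood at -1.10 (adjusted p = 0.775), and at -0.25 without either male. Junb had 246, 326 and 229 CPM in labelled knockout against 380, 380 and 654 CPM in labelled wild type, so its labels did not overlap, yet its adjusted p in limma was 0.775 (log2 difference -0.78 ± 0.22, from -1.0 to -0.42 with single libraries left out). In the interaction all 17 were below 0 (16 under median centring), with a median of -1.05, and 12 had an unadjusted p under 0.05, as did 17.9% of all genes. Egr3 (-2.93 ± 0.59, adjusted p = 0.0441) and Egr2 (-2.54 ± 0.52, adjusted p = 0.0466) passed, but not under quantile normalization, with a pseudocount of 0.1 or with no filter on low values, nor without labelled knockout 2 (adjusted p = 0.0804 and 0.0896). The interaction called 2.54% of all genes tested. Median centring called 4 of the 17, in a fit that called 661 of all genes. Egr2 stood at 66 CPM and Egr3 at 43.2 CPM in the male labelled wild type, and no other library exceeded 20.4 CPM and 14.6 CPM.

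**Figure D5:**
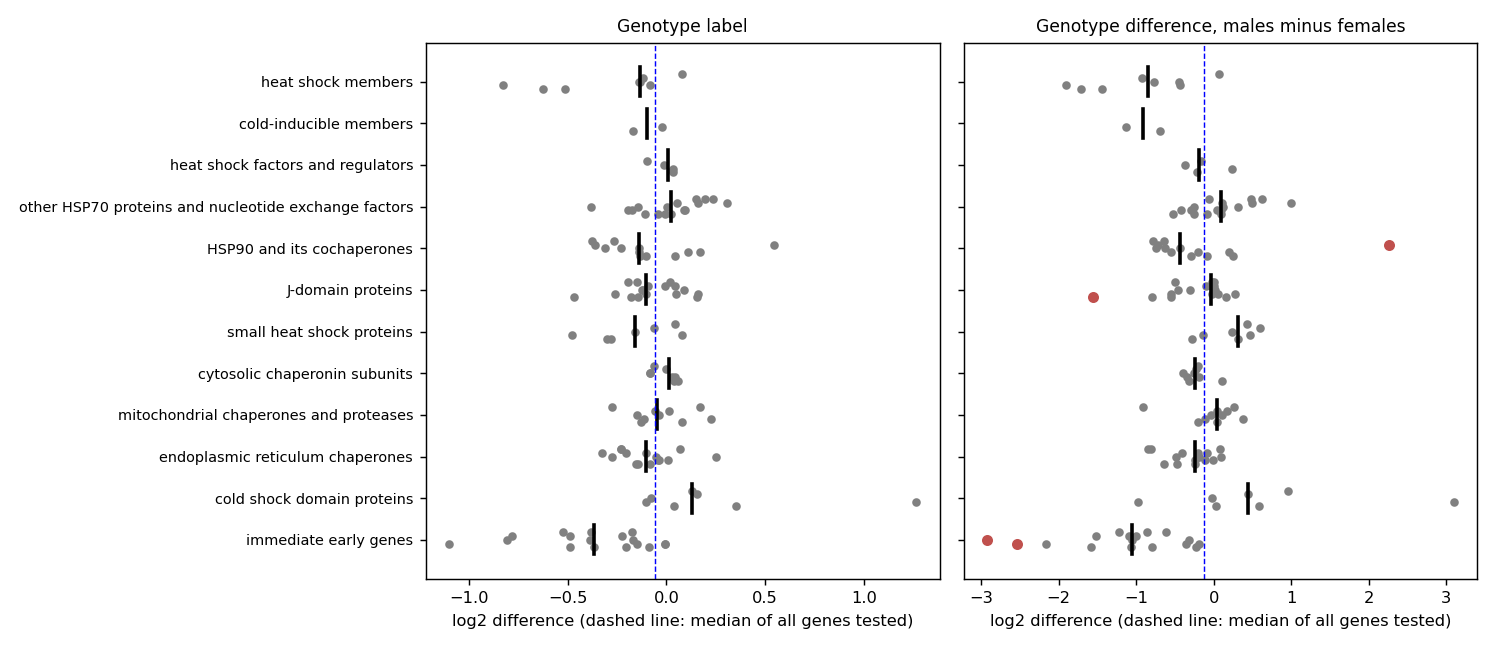
log2 differences of single genes (grey points, red where the adjusted p in limma was under 0.05; the height within a list has no meaning) in 12 lists (y axis), for labelled knockout minus labelled wild type on the left and for that difference in males minus females on the right. Black bars are list medians and the dashed line the median of all genes tested, -0.06 on the left and -0.13 on the right; red points stand only on the right, for Fkbp5, Dnaja1, Egr3 and Egr2.

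The genes most like the heat shock average were sought among 12898 genes with a mean of at least 5 CPM, by the root mean square distance of centred log2 values over the 6 libraries. Taf7 at 0.064, Siah2 at 0.071, Fam189b at 0.081, Gm8566 at 0.085 and Thoc2l at 0.087 were nearest, against a median of 0.353 over all genes searched and 0.215 to 0.504 for the 8 genes themselves. Taf7, a subunit of the general transcription factor TFIID, had 11.8, 17.5 and 8.81 CPM in labelled knockout and 14.1, 15.9 and 16.9 CPM in labelled wild type. It was lowest in the male labelled knockout, which follows from its being picked as nearest to the average. Nearest to the average of Cirbp and Rbm3 were Ralgps2 at 0.038, Plekhg1 at 0.046, Gm9761 at 0.080, Snrpb at 0.087 and Zfp868 at 0.089, against a median of 0.323 and 0.192 for each of the pair. Ralgps2 had 45.8, 35 and 24.8 CPM in labelled knockout and 37.6, 32.2 and 40.6 CPM in labelled wild type. The distances describe these 6 libraries and were not tested.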

How the data were processed

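RNA-seq of 6 lung libraries was analysed from the deposited table of CPM values per gene, which the authors made; it adds 0.0001 to every value. Per the submitters' processing notes, the build was mm10 and the tools TopHat2 and Partek, without versions or roles. Which annotation, strand setting or filter was used is not given in the sources used here. Low values were whole multiples of 1 read within 0.05 for 82.2% to 83.4% of values up to 100 reads, too few to rebuild read counts; that step gave the depth, and no count model was run.

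limma 3.58.1 (R 4.3.3, variance trend) was run on log2(CPM + 0.5), which understates changes of low genes, for 17382 genes with a mean of at least 0.5 CPM. Label and sex were additive terms, with an interaction in a further model. Tests were two-sided, with Benjamini-Hochberg adjustment over all genes tested and a threshold of 0.05. The fit was first tested on simulated data with known changes. The rest was done in Python 3.11.15 with numpy 2.4.6, pandas 2.3.3 and, for plots, matplotlib 3.10.9. Positions and transcripts came from GENCODE M21, start-site windows from RefSeq (GRCm38.p6).

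The 10 genes, the 12 pathway lists and the 12 cell marker lists were chosen with earlier results of these data known. From each pathway list the text names genes past the threshold in any comparison, up to 4 each, or the 2 of smallest p between labels where none passed there. Of 203 list genes, 201 were in the table. Alternatives were other pseudocounts, filters, scalings, weights, moderation and covariates, the 4 females alone, and each library left out.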

Additional observations from a re-analysis of the deposited data

Results flagged for a closer look

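In 4 genes of the lists around the 10, the interaction test of limma found a genotype difference that was not the same in the 2 sexes. That test called 2.54% of all genes tested. Fkbp5 had an interaction of 2.27 (SE 0.46, adjusted p = 0.0455), with 146 CPM in the male labelled knockout and 15.8 to 34.6 CPM in the other 5 libraries. Dnaja1 had -1.55 (SE 0.21, adjusted p = 0.0095), Egr3 -2.93 (SE 0.59, adjusted p = 0.0441) and Egr2 -2.54 (SE 0.52, adjusted p = 0.0466); in each of these 3 the male labelled knockout was lowest and the male labelled wild type highest. Each value rests on 1 male per label. Groups of 3 libraries were too small for a test of single outlying libraries.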

How the results depend on the processing

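Between labels, none of the 10 genes was called under any alternative run. Estimates changed sign with median centring for Hspd1 (0.02), Rbm3 (0.08), Hsbp1 (0.00), Cct3 (0.02) and Cct8 (0.02). With array weights they did so for Hspa8 (0.05), Hsph1 (0.15) and Rbm3 (0.28), and in the sex contrast for Rbm3 (-0.04). In the 4 females alone Hspa8 was 0.12, Hsph1 0.19, Dnajb1 0.06, Hspd1 0.06, Hspe1 0.01, Cirbp 0.06, Rbm3 0.35, Hspa12a -0.03, Dnaja1 0.05 and Cct8 0.05. The cause of these changes was not tested.

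With each library left out in turn, label estimates that changed sign ranged from -0.29 to 0.12 for Hspa8, -0.37 to 0.19 for Hsph1, -0.90 to 0.06 for Dnajb1, -0.23 to 0.06 for Hspd1, -0.28 to 0.01 for Hspe1, -0.33 to 0.06 for Cirbp, -0.32 to 0.35 for Rbm3, -0.04 to 0.10 for Hsf1, -0.03 to 0.49 for Hspa12a, -0.68 to 0.05 for Dnaja1 and -0.13 to 0.05 for Cct8. Sex estimates ranged from -1.89 to 0.02 for Hspa1b, -0.24 to 0.52 for Hspa8, -0.26 to 0.67 for Hsph1, -1.28 to 0.44 for Dnajb1, -0.28 to 0.16 for Hspd1, -0.09 to 0.36 for Hspe1 and -0.54 to 0.59 for Rbm3. The Hsp90aa1 interaction ranged from -0.07 to 0.20. Between 0 and 3 of the 10 genes were then called for sex, in fits that called 21 to 840 of all genes, and between 0 and 2 for the interaction, in fits that called 230 to 577 of all genes. The 3 sex calls came without the male labelled wild type. Without changing sign, label estimates ranged from -0.99 to -0.15 for Hspa1a, -1.26 to -0.19 for Hspa1b, -0.52 to -0.17 for Ppid, -0.47 to -0.12 for Ahsa2, -0.52 to -0.09 for Hspb1, 0.10 to 0.31 for Clpx, 0.08 to 0.23 for Lonp1, 0.16 to 0.46 for Carhsp1, -1.59 to -0.25 for Egr2, -1.0 to -0.42 for Junb and 0.23 to 1.78 for Lin28a. The range of Lin28a lacks the fit without the male labelled knockout, where the gene had no value. The Hspa1a and Hspa1b sum kept its sign, from -538 to -82.4 CPM, and its log2 difference was -0.74 (exact permutation p = 0.4).

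Over the alternatives that keep all libraries, adjusted p-values in limma ran from 0.0089 to 0.25 for Fkbp5, 0.00357 to 0.135 for Dnaja1, 0.0237 to 0.246 for Egr3 and 0.0269 to 0.246 for Egr2. With single females left out they ran from 0.00752 to 0.0763 for Fkbp5, 0.00688 to 0.0295 for Dnaja1, 0.0161 to 0.0804 for Egr3 and 0.0144 to 0.0896 for Egr2. All 4 were lost with no filter on low values, where 0 of 21900 genes were called for the interaction. The interaction could not be fitted without a male, and Lin28a had no value where its mean fell under the filter. No paired analysis was possible because the labels give no replicate numbers that the groups share. With 1 male per label, the interaction and the contrasts within a label have no replicate check in males.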
